A study of Mus musculus with 4 samples.

Results

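Transcripts of 7 transcription factor genes of the primitive streak and its organizer region were followed in whole mouse embryos of the ICR strain: T (Brachyury), Eomes, Mixl1, Mesp1, Evx1, Gsc (goosecoid) and Lhx1. They were taken by symbol from a table of 24421 genes, and all 7 were found and passed the minimum of 10 reads in at least 1 library, as did 14393 genes in all. RNA sequencing of polyadenylated RNA gave 4 libraries. One came from wild-type embryos at embryonic day 7.5 (E7.5 WT), one from wild-type embryos at embryonic day 8.5 (E8.5 WT), and a pair from Ddx6 -/- embryos at embryonic day 8.5 (KO1 and KO2). The mutant allele lacks exon 5 of Ddx6 and was made by crossing a floxed line with CAG-Cre mice, which express Cre broadly. The DDX6 protein is a DEAD-box helicase of P-bodies with roles in mRNA turnover, translational repression and silencing by microRNAs. Per the study's text, KO1 mixed an embryo from before head-fold formation with an embryo that had head folds, whereas KO2 pooled only embryos from before head-fold formation. Genotype within the KO pair was thus the same, and morphological stage was not.

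The primitive streak is the furrow at the posterior of the gastrulating embryo through which epiblast cells leave to form mesoderm and definitive endoderm. Nodal and Wnt signals induce its transcription factors. T is a T-box factor needed for posterior mesoderm and the notochord, and it stays on in the tail end of the body axis. Eomes, a second T-box factor, acts in the streak for definitive endoderm and cardiac mesoderm and is also needed in extraembryonic ectoderm, the trophoblast that adjoins the epiblast. Mixl1 is a homeodomain factor of nascent mesendoderm, Mesp1 a basic helix-loop-helix factor of the first mesoderm to leave the streak, including cardiac precursors, and Evx1 a homeodomain factor of the posterior streak. Gsc and Lhx1 are homeodomain factors of the anterior streak and organizer, and both are also transcribed in anterior visceral endoderm. Lhx1 later marks intermediate mesoderm as well.

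Libraries held between 8198402 reads (KO1) and 12562640 reads (E8.5 WT) assigned to genes, and levels are given as normalized CPM, reads scaled to a library total corrected for composition (TMM). Ddx6 itself was 5.53-fold lower in KO1 and 6.10-fold lower in KO2 than in E8.5 WT (edgeR adjusted p = 0.193, DESeq2 adjusted p = 2.33e-28). A row of 4 values gives E7.5 WT first, then E8.5 WT, KO1 and KO2. Genes that define the gastrulating embryo, such as Pou5f1, Sox2, Otx2, Fgf8 and Epcam, were present in all 4 libraries, with summed reads of 7669, 4087, 3028 and 10205. In whole embryos, a lower level can mean fewer cells of a type or less RNA per cell, and these cannot be told apart.

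Upstream sequence was taken from RefSeq (GRCm38.p6) for 6 of the 7 genes, Mixl1 having no entry. The 250 bases before each start were searched on both strands for 5 short motifs of factors known to act on or as streak genes. The 6 letters TCAAAG, the core of TCF/LEF sites through which Wnt signals act, were found upstream of T and Mesp1, and in 13.8% of 32851 promoters. The T-box core GTGTGA was found upstream of Evx1, and in 12.3% of promoters. The motif TAATNNNATTA, at which paired-type homeodomain proteins such as MIXL1 bind as dimers, was found upstream of Eomes, and in 0.463% of promoters. The FOXH1 core AATCCAC (2.10% of promoters) and the letters TAATCC of Bicoid-type homeodomain sites such as those of GSC (6.25%) were found in 0 of the 6. None of these motifs overlap in the stretches shown. The stretches that hold a match are given from 5′ to 3′ on the strand of the gene, with the match in capitals. For Mesp1 the RefSeq start lies downstream of the 5′ end of the GENCODE gene, so both of its stretches are upstream of the first and inside the second. Every match is shown, whatever the level of its gene in the KO libraries. Lhx1 and Gsc had no match. A match is a description of letters and not of binding, and its link to the level of a gene was not tested.
Eomes, chr9:118478053-118478112, plus strand: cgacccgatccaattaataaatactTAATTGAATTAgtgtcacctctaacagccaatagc
T, chr17:8434173-8434232, plus strand: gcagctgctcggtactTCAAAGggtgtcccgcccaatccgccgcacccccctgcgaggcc
Evx1, chr6:52313402-52313461, plus strand: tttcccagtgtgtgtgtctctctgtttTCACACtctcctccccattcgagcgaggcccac
Mesp1, chr7:79793645-79793674, minus strand: ccctgctatggtTCAAAGggttcaggccct
Mesp1, chr7:79793604-79793633, minus strand: ggctcgagccggCTTTGAtatgctgatgaa

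The WT libraries set these genes side by side in whole embryos a day apart. T had 3864 reads at E7.5 and 934 at E8.5, or 325 and 76.0 CPM, so it was 4.27-fold higher at the earlier stage (95% counting interval 3.98 to 4.60). Eomes had 1333 and 64 reads, or 112 and 5.21 CPM, which was 21.5-fold higher at E7.5 (16.7 to 28.1). Extraembryonic ectoderm also transcribes Eomes, and its markers summed to 687 CPM at E7.5 and 300 at E8.5. Of these 9 markers, 6 were higher at E7.5 by more than 1 on the log2 scale. The part of this tissue in the Eomes difference was not tested. Mesp1 had 570 and 52 reads and was 11.3-fold higher (8.52 to 15.4), and Mixl1 had 292 and 72 reads and was 4.19-fold higher (3.23 to 5.50). These factors of early streak and nascent mesoderm were thus the ones with the steepest decline. Evx1 had 562 and 369 reads, a 1.57-fold difference (1.38 to 1.80), and Lhx1 had 296 and 202, a 1.51-fold difference (1.26 to 1.82). Gsc ran the other way, with 4 reads at E7.5 and 19 at E8.5, and was 4.60-fold lower at E7.5, with a wide interval of 1.53 to 18.6. On the scale of log2 CPM with a prior count of 2, T, Eomes, Mixl1 and Mesp1 were above a difference of 1, where 7.82% of all genes lay, and Gsc was below -1, where 12.2% lay. With 1 library at each stage, these differences have no replicate check, and the intervals cover counting error only.

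**Figure D1:**
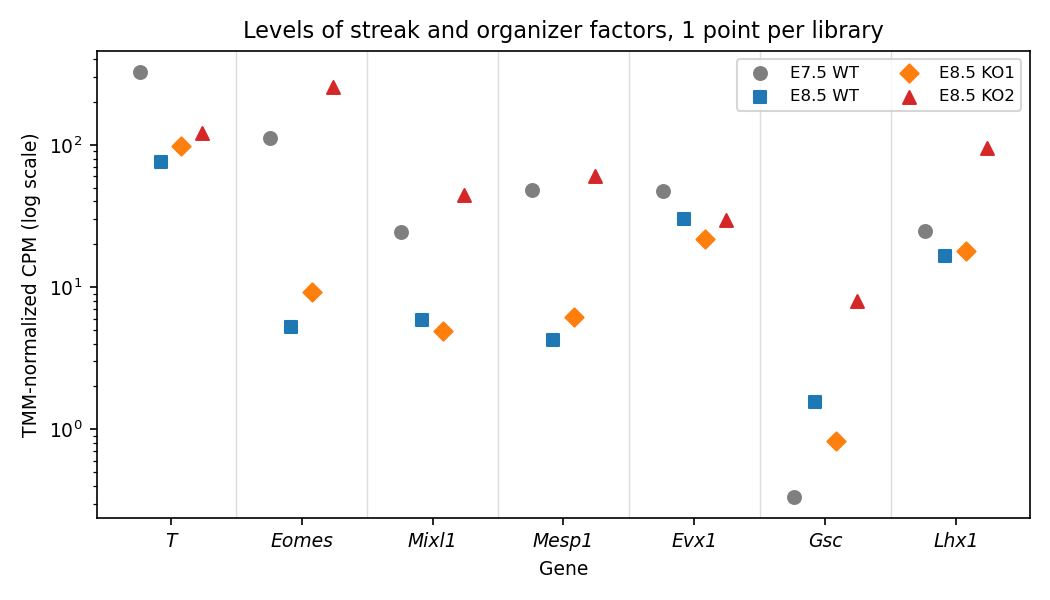
TMM-normalized CPM (log scale) of the 7 genes, with 1 point for each of the 4 libraries. KO2 is the highest library for Eomes, Mixl1, Mesp1, Gsc and Lhx1, E7.5 WT is the highest for T and Evx1, and KO1 lies near E8.5 WT for all 7 genes.

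The main question was how these factors stood in embryos without Ddx6 against wild-type embryos of the same day. KO2 held far more transcript of Eomes, Mesp1, Mixl1, Lhx1 and Gsc than E8.5 WT, between 5.15-fold and 49.3-fold, whereas T was 1.60-fold higher and Evx1 was level. KO1 did not share increases of this size. Each of the 7 genes in KO1 was within a log2 difference of 1 from E8.5 WT.

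The T-box genes Eomes and T parted in KO2. Eomes lies on the plus strand of chromosome 9 (118478212 to 118486132, GRCm38), where Gm33460 overlaps it on the other strand. It had 77 reads in KO1 and 3128 in KO2 against 64 in E8.5 WT. That is 9.17 and 257 CPM against 5.21, so KO1 was 1.76-fold (1.25 to 2.49) and KO2 49.3-fold (38.5 to 64.2) above E8.5 WT. The KO2 level also exceeded that of E7.5 WT, by 2.29-fold (2.15 to 2.44), while KO1 was 12.2-fold below E7.5 WT (9.71 to 15.6). KO1 and KO2 therefore lay on opposite sides of the E7.5 WT library, which held more reads of extraembryonic ectoderm markers than either. T (chromosome 17, 8434423 to 8442496, plus strand) had 829 reads in KO1 and 1485 in KO2 against 934 in E8.5 WT. After normalization it was 1.30-fold higher in KO1 (1.18 to 1.43) and 1.60-fold higher in KO2 (1.48 to 1.74), and both KO libraries stayed under E7.5 WT, by 3.29-fold (3.05 to 3.55) and 2.67-fold (2.51 to 2.83). T was the gene on which the KO libraries agreed best, with a mean log2 change against E8.5 WT of 0.53 ± 0.21 (SD, n = 2), whereas that of Eomes was 3.19 ± 3.38 (SD, n = 2).

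The nascent mesendoderm factors were higher in KO2 as well. Mesp1 (chromosome 7, 79792241 to 79793788, minus strand) had 52 reads in KO1 and 741 in KO2 against 52 in E8.5 WT and 570 in E7.5 WT. KO2 was 14.4-fold above E8.5 WT (10.8 to 19.4) and 1.27-fold above E7.5 WT (1.14 to 1.42), and in KO1 the 1.46-fold difference from E8.5 WT had an interval that included no difference (0.977 to 2.19). Mixl1 (chromosome 1, 180693043 to 180697034, minus strand) had 41 reads in KO1 and 542 in KO2 against 72 in E8.5 WT and 292 in E7.5 WT. It was 7.59-fold higher in KO2 than in E8.5 WT (5.93 to 9.85) and 1.81-fold higher than in E7.5 WT (1.57 to 2.10). In KO1 it was 1.20-fold lower than in E8.5 WT (0.807 to 1.81). The mean log2 changes of Mesp1 and Mixl1 against E8.5 WT were 2.16 ± 2.30 and 1.32 ± 2.22 (SD, n = 2), so the spread between the KO libraries was as large as the change.

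Evx1, the posterior streak factor, was the exception. Evx1 (chromosome 6, 52313498 to 52318378, plus strand) had 184 reads in KO1 and 363 in KO2 against 369 in E8.5 WT and 562 in E7.5 WT. KO1 was 1.37-fold lower than E8.5 WT (1.15 to 1.64), and in KO2 the log2 change was -0.01, with an interval of the log2 ratio from -0.22 to 0.20. It was lower in both KO libraries than in E7.5 WT, by 2.16-fold (1.82 to 2.56) and 1.59-fold (1.39 to 1.81). The annotated antisense transcript Evx1os overlaps Evx1 on the other strand, and the reads were counted by strand.

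The organizer factors Lhx1 and Gsc were the genes for which KO2 stood furthest above both WT stages. Lhx1 (chromosome 11, 84518284 to 84525535, minus strand) had 150 reads in KO1 and 1156 in KO2 against 202 in E8.5 WT and 296 in E7.5 WT. KO2 was 5.77-fold above E8.5 WT (4.97 to 6.74) and 3.81-fold above E7.5 WT (3.35 to 4.35). At 17.9 CPM, KO1 was within counting error of the 16.4 CPM of E8.5 WT (1.09-fold, 0.874 to 1.35). Gsc (chromosome 12, 104471209 to 104473330, minus strand) had 7 reads in KO1 and 97 in KO2 against 19 in E8.5 WT and 4 in E7.5 WT. KO2 was 5.15-fold above E8.5 WT (3.13 to 8.92) and 23.7-fold above E7.5 WT (8.95 to 88.6). At 7 reads the KO1 level of Gsc could not be told from that of either WT library, since the intervals of its log2 ratio ran from -2.38 to 0.42 against E8.5 WT and from -0.67 to 3.53 against E7.5 WT. Neighbouring levels that did not differ beyond counting error were thus KO1 and E8.5 WT for Mixl1, Mesp1, Lhx1 and Gsc, KO1 and E7.5 WT for Gsc, and KO2 and E8.5 WT for Evx1.

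**Figure D2:**
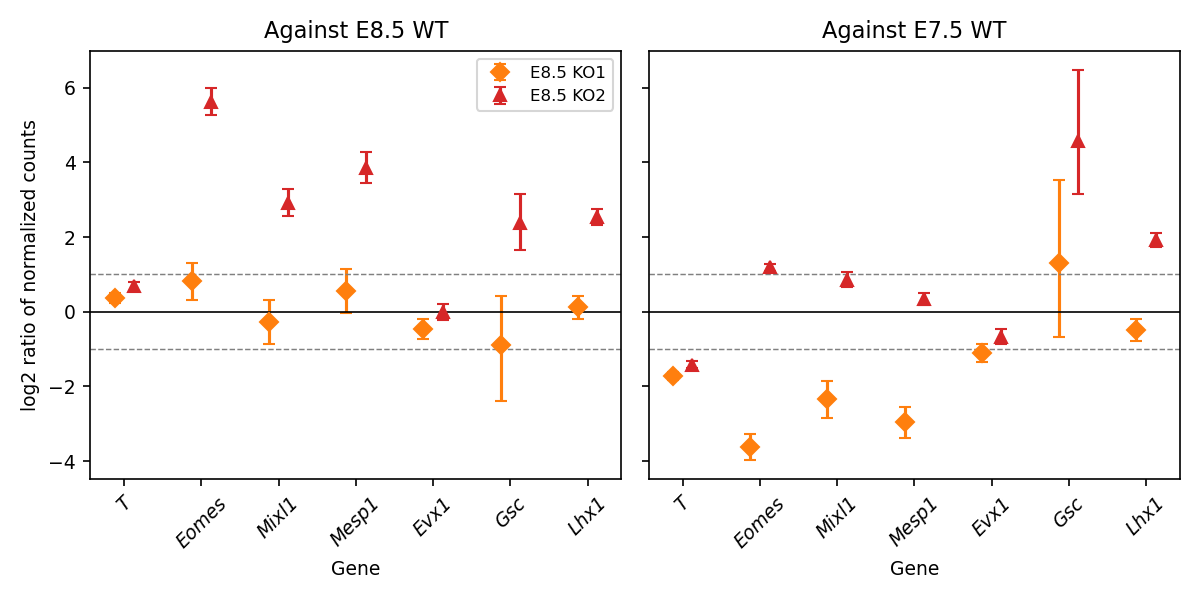
Log2 ratio of normalized counts of KO1 and KO2 to E8.5 WT (left) and to E7.5 WT (right) for the 7 genes, with bars for the 95% counting interval and dashed lines at 1 and -1. Against E8.5 WT, KO2 lies above 2 for Eomes, Mixl1, Mesp1, Gsc and Lhx1 while KO1 lies between -1 and 1, and against E7.5 WT both KO libraries lie below -1 for T.

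Counted over the 7 genes, 5 were past a log2 change of 1 against E8.5 WT in KO2 and 0 in KO1, and 0 were below -1 in either. Of all 14393 genes, 9.41% were above 1 in KO2 and 4.97% in KO1, and 5.91% and 3.31% were below -1. The median change of the 7 genes was 2.52 in KO2 and 0.12 in KO1, where the medians of all genes were -0.00127 and -0.00832. No gene of the 7 passed in both KO libraries, against 3.44% of all genes in the upward and 1.79% in the downward direction. Against E7.5 WT, KO1 had T, Eomes, Mixl1, Mesp1 and Evx1 below -1 and no gene above 1 (7.45% and 13.2% of all genes), with a median of -1.72. KO2 had Eomes, Lhx1 and Gsc above 1 and T below -1 (10.9% and 4.06% of all genes), with a median of 0.85. T was the 1 gene of the 7 below -1 in both KO libraries against E7.5 WT, as were 2.7% of all genes, and none of the 7 was above 1 in both, as were 6.91%. In Gsc the KO1 change of 0.97 was just under the threshold. Both sets of changes use the same KO libraries, and those against E8.5 WT also share their reference library.

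Between the KO libraries, all 7 genes were higher in KO2, and the counting interval lay above 0 for each. Eomes was 28.0-fold higher (22.3 to 35.6), Mesp1 9.82-fold (7.41 to 13.3), Gsc 9.55-fold (4.46 to 24.4), Mixl1 9.11-fold (6.63 to 12.8) and Lhx1 5.31-fold (4.48 to 6.34). Evx1 and T differed by 1.36-fold (1.14 to 1.63) and 1.23-fold (1.13 to 1.35). Thus 5 of 7 genes were past a log2 difference of 1 upward and 0 downward, where 5.99% and 4.89% of all genes were. KO2 was the highest of the 4 libraries for the same 5 genes, and for 20.6% of all genes.

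The quasi-likelihood test of edgeR, two-sided and with Benjamini-Hochberg adjustment over all 14393 genes, called 0 of the 7 genes in the comparison of the KO libraries with E8.5 WT. Adjusted p ran from 0.669 for T to 0.816 for Evx1, and T was the 1 gene with an unadjusted p below 0.05, with a log2 change of 0.54 in the fit. Over all genes the test called 0 (0.0%), with 1039 at an unadjusted p below 0.05, and DESeq2 called 34, none of the 7 among them. Against both WT libraries as a group, edgeR called 0 of the 7 and 0 of all genes (0.0%), with adjusted p between 0.900 for Lhx1, Gsc, T and Evx1 and 0.973 for Mesp1. At an unadjusted p below 0.05 there were 565 genes, 0 of the 7 among them, and DESeq2 called 32. In that comparison Lhx1 was higher by 1.45 on the log2 scale and Gsc by 2.22, but without KO2 the values were -0.21 and -0.18, and without KO1 they were 2.20 and 3.06. Since nothing in the labels states that libraries came from separate litters, these p-values measure the spread between these libraries alone, and for the first test that is the spread between KO1 and KO2.

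The make-up of the streak factor reads within a library needs no normalization between libraries. The 7 genes together had 6921, 1712, 1340 and 7512 reads. T took 55.8% of them in E7.5 WT (95% Clopper-Pearson interval 54.7 to 57.0), 54.6% in E8.5 WT (52.2 to 56.9) and 61.9% in KO1 (59.2 to 64.5), but 19.8% in KO2 (18.9 to 20.7). Eomes took 19.3% in E7.5 WT (18.3 to 20.2), 3.74% in E8.5 WT (2.89 to 4.75), 5.75% in KO1 (4.56 to 7.13) and 41.6% in KO2 (40.5 to 42.8). KO2 was thus near E7.5 WT in the summed level (616 against 582 CPM) and not in its make-up. Lhx1 took 15.4% in KO2 (14.6 to 16.2) and 4.28% in E7.5 WT (3.81 to 4.78), while its share in E8.5 WT and KO1 was 11.8% and 11.2%. The share of Evx1 was 21.6% in E8.5 WT (19.6 to 23.6), 13.7% in KO1 (11.9 to 15.7), 8.12% in E7.5 WT (7.49 to 8.79) and 4.83% in KO2 (4.36 to 5.34).

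Ratios of reads to those of T were highest in KO2 for each gene but Evx1. There were 2.11 reads of Eomes for each read of T in KO2 (1.98 to 2.24), against 0.345 in E7.5 WT (0.324 to 0.367), 0.0685 in E8.5 WT (0.0523 to 0.0883) and 0.0929 in KO1 (0.0726 to 0.117). Mesp1 had 0.499 reads for each read of T in KO2 (0.456 to 0.545) and 0.148 in E7.5 WT (0.135 to 0.161). Mixl1 had 0.365 in KO2 (0.330 to 0.403), whereas its ratios of 0.0756, 0.0771 and 0.0495 in the WT stages and KO1 had overlapping intervals. For Evx1 the ratio in KO2 was 0.244 (0.217 to 0.274), which overlapped that in KO1 (0.222) and lay between those of E7.5 WT (0.145) and E8.5 WT (0.395). Set against Eomes instead, Mesp1 was lower in KO2, with 0.237 reads for each read of Eomes (0.218 to 0.257) against 0.428 in E7.5 WT (0.387 to 0.472). Lhx1 was higher by the same measure, at 0.370 (0.345 to 0.395) against 0.222 (0.195 to 0.252). In E8.5 WT and KO1, where Eomes was low, the ratios to Eomes were above those of KO2 for both genes, at 0.813 and 0.675 for Mesp1 and at 3.16 and 1.95 for Lhx1.

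**Figure D3:**
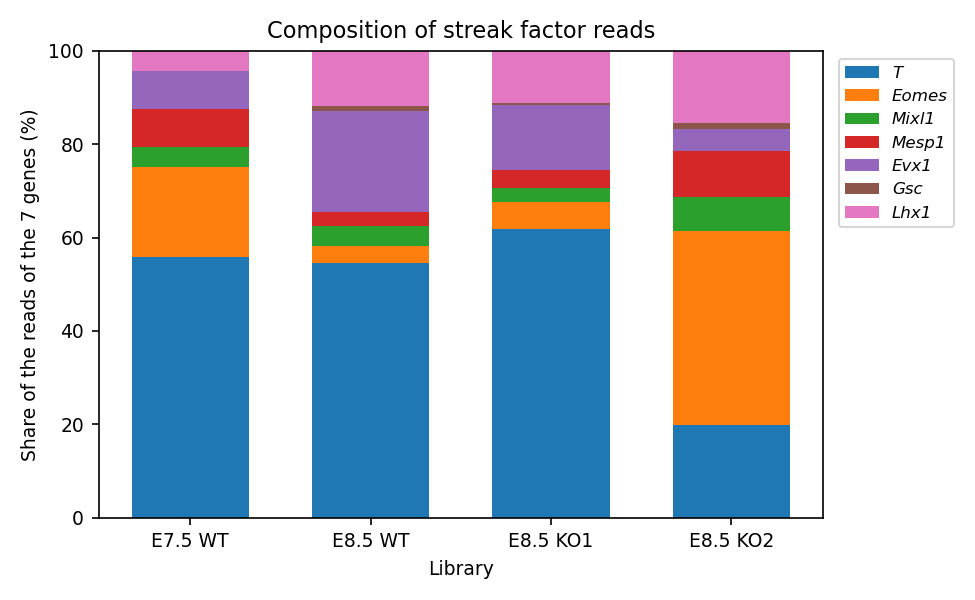
Stacked shares (%) of the reads of the 7 genes in each of the 4 libraries, every bar adding up to 100%. T holds between 54.6% and 61.9% in the WT libraries and KO1, whereas in KO2 Eomes holds 41.6% and T 19.8%. These shares are not corrected for gene length. Taken per kilobase of merged exons, Eomes holds 27.8% and T 23.7% in KO2.

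Levels of different genes can be compared only per length, here as CPM per kilobase of merged exons. T was the most abundant of the 7 in both WT libraries and KO1, at 140, 32.8 and 42.6 CPM per kilobase. In KO2, Eomes (61.8) stood above T (52.6), followed by Mesp1 (47.7), Lhx1 (23.9), Mixl1 (19.4), Evx1 (10.4) and Gsc (6.28). In E7.5 WT the order after T was Mesp1 (37.6), Eomes (27.0), Evx1 (16.4), Mixl1 (10.7), Lhx1 (6.27) and Gsc (0.265). Gsc was the lowest in every library, though in E8.5 WT it (1.22) was level with Eomes (1.25). The order in E8.5 WT and KO1 differed in the middle ranks, where Mesp1, Mixl1 and Eomes lay between 1.25 and 4.86 CPM per kilobase.

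Among themselves the genes fell into neighbouring profiles. As a measure of likeness, the log2 CPM of each gene was centred on its mean over the 4 libraries, and the root mean square difference between genes was taken. Mixl1 and Mesp1 were closest (0.51), followed by T and Evx1 (0.51), Mixl1 and Lhx1 (0.68), and Eomes and Mesp1 (0.69). Eomes and Gsc were furthest apart (2.28). Outside the 7, the profile nearest to Eomes was that of Lgals3, which encodes galectin-3 (0.06), with 185, 7, 10 and 477 reads, and then those of Pfpl (0.31) and Fosl1 (0.45). Mesp1 was nearest to Bcl11b (0.20), Syndig1l (0.24) and Sfn (0.28). Evx1 had close neighbours of high count, namely Gpank1 (0.01), Lonp1 (0.01) and Clpp (0.02), which encode no streak factor. The nearest genes to the others were Prr19, Espnl and Phkg1 for T, Mt4, Psmb9 and 1600015I10Rik for Mixl1, Samd5, Cyp24a1 and Plau for Gsc, and Lzts1 and Prg4 for Lhx1. Except for Samd5, Plau and Lzts1, each of these had at most 20 reads in every library. With 4 libraries, such likeness is a description.

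Close paralogs mostly gave no comparison. Mesp2, the neighbour and paralog of Mesp1, had 69, 11, 10 and 72 reads, so its log2 changes against E8.5 WT were 0.35 in KO1 and 2.50 in KO2. Lhx5, the paralog of Lhx1, had 27, 216, 74 and 67 reads. It was lower in the KO libraries than in E8.5 WT by 0.98 and 1.64 on the log2 scale, so in KO2 Lhx1 and Lhx5 differed from E8.5 WT in opposite directions. Tbx19, Tbr1, Tbx21, Evx2 and Gsc2 stayed under 10 reads in every library.

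Genes that act before the streak factors were described next. Among the Nodal and Wnt inputs, 19 of 20 listed genes had enough reads. Of these, 2 were past the threshold upward in both KO libraries against E8.5 WT, as were 3.44% of all genes. Nodal, the ligand that induces Eomes, had 50, 23, 37 and 155 reads, or 2.35-fold and 6.80-fold above E8.5 WT in KO1 and KO2. Wnt3, the ligand needed for streak formation, had 124, 46, 88 and 325 reads, or 2.80-fold and 7.13-fold. Both were thus higher in KO1 as well as in KO2. Their part in the levels of the 7 genes was not tested. Tdgf1, which encodes the Nodal co-receptor Cripto and was singled out after its values were seen, had 300, 31, 6 and 1480 reads, a log2 change of -1.60 in KO1 and 5.49 in KO2. The median over the list was 0.14 for KO1 and 0.17 for KO2. Its receptors, SMADs and TCF/LEF factors lay within a log2 change of 1 in both. The ligands Wnt3a and Wnt8a were lower in KO2 by 2.36 and 1.48 on the log2 scale.

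Listed genes of the anterior streak and definitive endoderm numbered 14, with a median change from E8.5 WT of 0.24 for KO1 and 0.82 for KO2. Of these, 2 were higher and 2 lower in both, as were 3.44% and 1.79% of all genes. Those higher were the secreted antagonists Cer1, with 835, 135, 202 and 2021 reads, and Chrd, with 345, 77, 151 and 541. Those lower were Fgf17 (11, 61, 13 and 28 reads) and Hesx1 (26, 170, 57 and 73), genes of the anterior neural plate at E8.5. Otx2, a homeobox gene of the anterior embryo, had 828, 703, 510 and 2059 reads and was 2.95-fold above E8.5 WT in KO2 and 1.06-fold in KO1. The endoderm factors Foxa2 and Sox17 had log2 changes of 0.91 and 0.90 in KO2, and of 0.22 and 0.47 in KO1. Their KO2 levels did not differ from those of E7.5 WT beyond counting error, with ratio intervals of 0.889 to 1.13 and 0.961 to 1.20, while Lhx1 in the same library was 3.81-fold above E7.5 WT.

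Nascent and presomitic mesoderm genes, which include known targets of T, were lower in KO2 in part. Of 15 genes, 6 were below -1 and 2 above 1 in KO2 against E8.5 WT (5.91% and 9.41% of all genes). In KO1, 2 were below -1 (3.31% of all genes), and the medians were -0.40 for KO2 and 0.21 for KO1. Msgn1, a presomitic factor, had 38, 127, 99 and 3 reads, so KO1 was within counting error of E8.5 WT (log2 change 0.19) and KO2 42.0-fold below it, with an interval from 14.0 to 206. Tbx6, the T-box factor of paraxial mesoderm, had 351, 218, 215 and 91 reads, and its log2 changes were 0.52 and -1.23. Cdx4, a caudal homeobox gene of the posterior axis, was lower in both, with 27, 387, 68 and 5 reads, or 3.89-fold in KO1 and 76.7-fold in KO2. Snai1, the repressor of E-cadherin in ingressing cells, had 541, 470, 245 and 517 reads, with log2 changes of -0.39 and 0.15. In KO2, T was thus 1.60-fold above E8.5 WT in the same library in which Msgn1, Tbx6 and Cdx4 were lower.

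**Figure D4:**
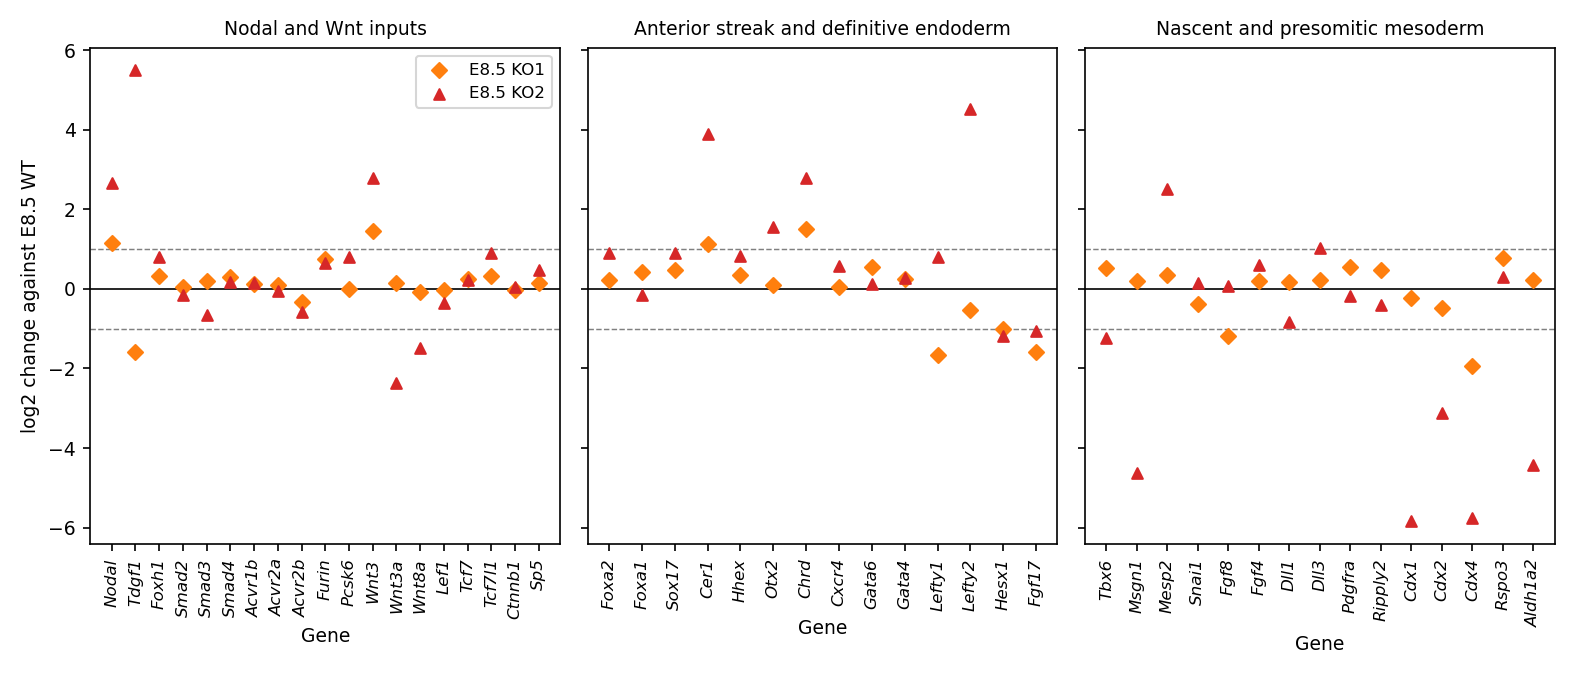
Log2 change against E8.5 WT in KO1 and KO2 for each gene of the Nodal and Wnt inputs, of the anterior streak and definitive endoderm, and of nascent and presomitic mesoderm, with dashed lines at 1 and -1. Nodal, Wnt3, Cer1 and Chrd lie above 1 in both KO libraries, Tdgf1 and Lefty2 lie above 4 in KO2 and below 0 in KO1, and Msgn1, Tbx6, Cdx1 and Cdx2 lie below -1 in KO2 and between -1 and 1 in KO1.

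Mesoderm derivatives downstream of Mesp1, such as cardiac and vascular factors, numbered 16, with a median of -0.11 for KO1 and -1.36 for KO2. In KO2, 9 were below -1 and 0 above 1 (5.91% and 9.41% of all genes). Nkx2-5, a cardiac homeobox gene, was below -1 in both KO libraries, with 6, 188, 33 and 10 reads. For 6 node and notochord genes the medians were 0.29 and -0.94. Foxj1, which drives motile cilia in the node, had 661, 67, 233 and 568 reads, or 5.09-fold and 8.55-fold above E8.5 WT. Cofactors of LHX1 and genes of the epithelial to mesenchymal transition had medians of 0.08 and 0.00282 over 13 genes, with 0 past the threshold in both.

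Several of the 7 genes are also transcribed outside the streak, so markers of those tissues were read in the same libraries. Extraembryonic ectoderm, which transcribes Eomes, was represented by 9 genes, whose summed level was 687, 300.2, 248 and 196 CPM. The sum includes Cdx2, which is also among the presomitic mesoderm genes above and had 990, 1326, 653 and 150 reads. The place of KO2 as the lowest library in this sum rests on Cdx2. Elf5, a defining gene of this tissue, had 795, 3, 3 and 10 reads. In KO2, 7 of the 9 genes were below -1 against E7.5 WT and 0 above 1 (4.06% and 10.9% of all genes), although Eomes was 2.29-fold higher there. Against E8.5 WT, 4 of the 9 were above 1 in KO2 and 2 below -1 (9.41% and 5.91% of all genes). Markers of trophoblast giant cells and the ectoplacental cone did move with Eomes in KO2. Leaving out Hand1, which mesoderm also transcribes, their summed reads were 72, 9, 12 and 9180. The placental hormone genes Prl3d1 (27, 1, 3 and 4156 reads) and Prl2c2 (3, 0, 4 and 1400 reads) were past the threshold upward in both KO libraries against E8.5 WT. In KO1 both calls rest on very few reads, and the summed reads there were 12 against 9 in E8.5 WT. Tpbpa was at 0 in every library. The part of these cells in the level of Eomes was not tested.

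Uterine natural killer cells of the mother also transcribe Eomes, and their 8 markers summed to 16, 3, 13 and 138 reads. The 5 markers kept reached the minimum of 10 reads through KO2 alone. That all 5 were above 1 in KO2 against E8.5 WT (9.41% of all genes) thus followed largely from that minimum. In KO1, 4 of them were above 1 too (3.44% of all genes in both), on 2 to 4 reads against 0 or 1 in E8.5 WT. These 4 encode cytotoxic granule proteins and had few reads, namely Gzma 4, 0, 2 and 36, Gzmb 1, 0, 3 and 19, Gzmc 4, 0, 4 and 30, and Prf1 0, 1, 3 and 22. The receptor gene Ncr1 had 0, 0, 0 and 1 read. Markers of maternal decidua summed to 227, 64.9, 104 and 208 CPM, and 1 of the 5, Prl8a2, was past the threshold upward in both KO libraries, with 1318, 26, 64 and 1433 reads. The part of these maternal cells in the level of Eomes was not tested. Visceral endoderm, whose anterior part transcribes Lhx1 and Gsc, was represented by 8 genes of the tissue in general. Their summed levels were 6901, 7185, 4280 and 4082 CPM, lower in both KO libraries than in either WT library. Their KO2 medians were -0.75 against E8.5 WT and -0.76 against E7.5 WT. These genes do not single out the anterior part, and its share in the levels of Lhx1 and Gsc was not tested. Apoa1 (12148, 6739, 1302 and 2002 reads) and Rbp4 (5817, 4720, 1417 and 1372 reads), which encode carrier proteins, were past the threshold downward in both KO libraries against E8.5 WT. Intermediate mesoderm, a later site of Lhx1, had 150, 545, 161 and 103 reads over 4 genes. Pax2 was 3.12-fold lower in KO1 and 20.5-fold lower in KO2 than in E8.5 WT, and Pax8, also past the threshold downward in both, had 2, 21, 0 and 8 reads.

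**Figure D5:**
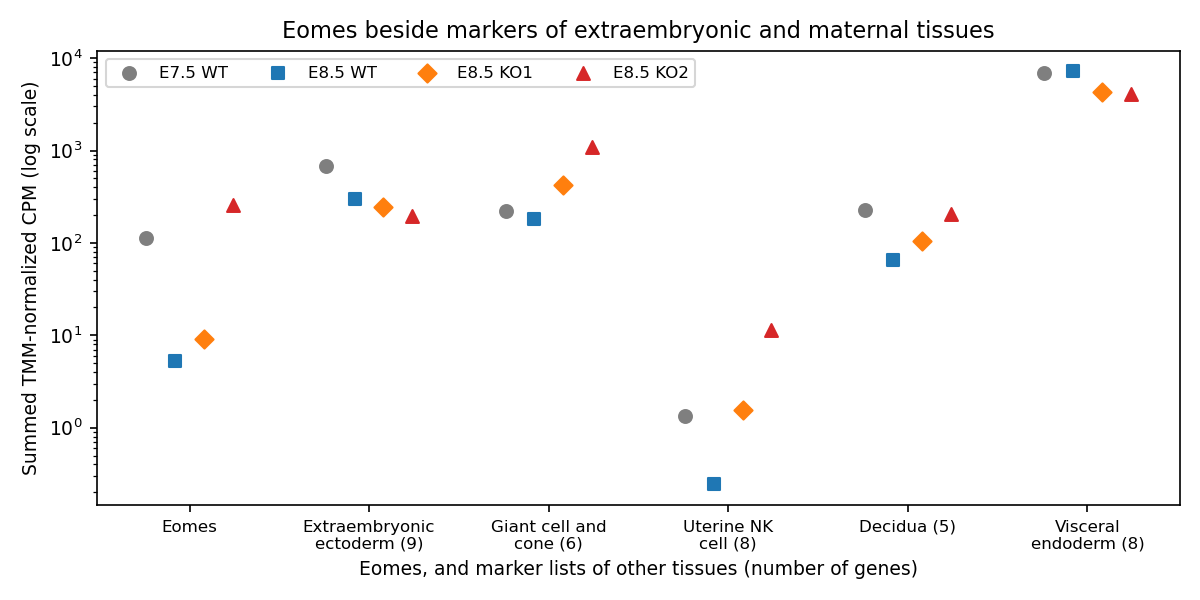
Eomes and the summed TMM-normalized CPM (log scale) of marker lists for extraembryonic ectoderm, trophoblast giant cells and ectoplacental cone, uterine natural killer (NK) cells, decidua and visceral endoderm in the 4 libraries. Eomes is highest in KO2 at 257 CPM, as are giant cell and cone markers (1084 with Hand1) and uterine natural killer markers (11.3). Extraembryonic ectoderm markers are lowest there at 196 with Cdx2, also a presomitic mesoderm gene, in the sum.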

How the data were processed

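Polyadenylated RNA of whole embryos was sequenced in 4 libraries. The authors trimmed reads with Cutadapt 2.8, aligned them to mm10 with HISAT2 2.1.0 and counted them per gene over exons, by strand, with featureCounts 2.0.0, and deposited raw counts. Groups came from the sample titles. Factors of the trimmed mean of M-values (TMM) were computed over all genes in edgeR 4.0.16 (R 4.3.3) and lay between 0.978 and 1.02. Genes with at least 10 reads in 1 library or more were kept. Log2 changes were differences of log2 CPM with a prior count of 2, and the threshold of 1 or -1 was that of the authors' methods. Folds are ratios of normalized counts without a prior count, with exact 95% Clopper-Pearson intervals. These intervals cover counting error only and hold no spread between embryos or libraries. PCR copies were not told apart by molecular identifiers. The edgeR quasi-likelihood test was the test across genes, and DESeq2 1.42.0 was the alternative. The edgeR test was checked only on simulated data in which the KO libraries shared each change, which KO1 and KO2 often did not.

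Exon lengths and positions came from GENCODE M21 (GRCm38, the assembly of mm10), and promoters from RefSeq. The 7 genes, the 14 lists and the tests were chosen with earlier results of these data known. The lists covered Nodal and Wnt inputs, anterior streak and definitive endoderm, nascent and presomitic mesoderm, mesoderm derivatives, node and notochord, cofactors, paralogs and markers of 7 tissues. Epb41l5 found no match in the table. Genes named are the 7, Ddx6, fixed anchor genes, paralogs, list members that both KO libraries put past the threshold against E8.5 WT (at most 6 a list) and the 3 nearest profiles of each gene, of which 1 is not reported here. Tdgf1, Wnt3a, Wnt8a, Lefty2, Cdx1, Cdx2, Dll3 and marker genes named singly were picked with their values in view. The closing section gives the effect of DESeq2 size factors and of plain CPM in place of TMM, of no low-count filter or one at 50 reads, of a prior count of 0.5, of a cut at 2, and of each KO library left out.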

Additional observations from a re-analysis of the deposited data

How the results depend on the processing

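No gene of the 7 was past the threshold against E8.5 WT in both KO libraries under any alternative that kept both. Without KO1 the count was 5 and without KO2 it was 0. Against E7.5 WT the count of 1 became 2 under plain CPM and under a prior count of 0.5, where Gsc joined T, and 0 under a threshold of 2, and it was 4 and 5 without KO1 and without KO2. The counts between the WT stages and between KO2 and KO1, 5 each, stayed at 5, or 4 between the WT stages under a threshold of 2.

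In the edgeR test against E8.5 WT, the 0 genes called became 1 under plain CPM, 7 without the filter and 34 with DESeq2, with 0 of the 7 genes in each case. Against both WT libraries, DESeq2 called 32 genes, and edgeR called 51 without KO1 and 1 without KO2, where the lone KO library is assumed to vary like the WT libraries. Without KO1 Lhx1 was called (adjusted p 0.0437, log2 change 2.20), so 1 of the 7 was called there and 0 without KO2. Without KO2 the log2 changes of Lhx1 and Gsc were -0.21 and -0.18, against 1.45 and 2.22 with both KO libraries.

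Of 140 log2 changes recomputed under another scaling, filter or prior count, 0 changed sign, and the largest move was 0.32, under a prior count of 0.5. Leaving out a KO library turned the sign of the mean change against E7.5 WT for Eomes (1.19), Mixl1 (0.85) and Mesp1 (0.34) without KO1 and for Lhx1 (-0.47) without KO2, and against E8.5 WT for Mixl1 (-0.25) and Gsc (-0.77) without KO2. Shares of reads taken per kilobase moved beyond their counting interval in 22 of 28 cases, and T and Eomes kept their places as the most abundant in the WT libraries with KO1 and in KO2. No paired analysis was possible because the WT groups have 1 library each and share no replicate pair with the KO group. With 4 to 19 reads, the level of Gsc is limited by depth in each library but KO2.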
